A study of Mus musculus with 24 samples.

Results

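The genes described here were Otx2, the class III POU genes Pou3f1, Pou3f2, Pou3f3 and Pou3f4, Sall2 and Nr6a1. They were taken by symbol from a table of 49705 gene entries, which held all 7, and each of the 7 was among the 21005 genes tested, for which 3 or more libraries had to reach 10 normalized counts. PolyA RNA was sequenced from Rx-GFP K/I EB5 mouse embryonic stem cells, a line in which GFP was knocked in at Rax, an eye field transcription factor, and from the optic vesicle organoids they formed. The 24 libraries formed 8 groups of 3, namely days 0, 1, 2 and 3 and the GFP negative and GFP positive cells of days 4 and 5. Day 0 was the day on which 4500 stem cells per well were plated, and 2% Matrigel was added on day 1. The sources differ on the medium, which held 1.5% knockout serum replacement by the labels and was chemically defined, without growth factors, for the initial organoids by the study's methods. Each library came from 24 pooled organoids that were dissociated and sorted for live single cells, with GFP used as a further gate on days 4 and 5 only. That gate split the sorted cells of a day, and by the methods the GFP negative fraction also held cells of low GFP signal. Every group carried the same knock-in and came from this 1 line, so the spread between the labelled replicates holds no difference between lines, and p-values measure only the spread between these samples.

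Otx2 encodes a homeodomain protein that acts in the epiblast as cells leave the naive state, and later in the forebrain, the midbrain and the eye. Class III POU proteins bind DNA through a POU-specific domain and a homeodomain and are known as partners of SOX proteins in neural progenitors. Pou3f1 is a gene of the primed epiblast and of early neural induction, whereas Pou3f2, Pou3f3 and Pou3f4 are known from the neural tube and from differentiating neurons. Sall2 is a zinc finger gene of the spalt family that is needed for closure of the optic fissure, and Nr6a1 encodes an orphan nuclear receptor that represses the pluripotency gene Pou5f1 when stem cells differentiate.

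On the mm10 build the members lay at chr14:48657677-48673819 on the minus strand (Otx2), chr4:124656807-124660655 on the plus strand (Pou3f1), chr4:22482780-22488366 on the minus strand (Pou3f2), chr1:42694925-42703176 on the plus strand (Pou3f3), chrX:110814280-110817207 on the plus strand (Pou3f4), chr14:52311172-52328762 on the minus strand (Sall2) and chr2:38723370-38927688 on the minus strand (Nr6a1). In the GENCODE annotation of that build each class III POU gene had 1 transcript of 1 exon, and Pou3f3 started at base 42695768, inside the span given in the table. Otx2 and Nr6a1 had 11 transcripts each and Sall2 had 2. Exons of Otx2 overlapped Otx2os1 on the other strand over 154 bases and Gm49154 on its own strand over 168 bases, and the exon of Pou3f1 overlapped Gm2164 on the other strand over 330 bases. Whether the counting used strand is not given in the sources used here, so reads from these overlaps are of uncertain origin. Of the stretches of 31 bases in each member's transcripts, 8.17% were found in another gene for Pou3f1, 3.23% for Otx2, 2.33% for Nr6a1, 1.85% for Pou3f2, 1.35% for Pou3f4, 0.964% for Pou3f3 and 0 for Sall2.

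The class III POU genes resemble each other in their coding sequence, and the longest run that any pair shared is shown because it sets how far short reads could be split between them. It was 38 bases long and lay in the coding sequence of Pou3f1 and Pou3f2, with only 8 stretches of 31 bases shared by the pair, and capitals mark no part of it.
Pou3f1 and Pou3f2: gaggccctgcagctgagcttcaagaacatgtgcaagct

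The sequences before the starts of Pou3f2, Pou3f3 and Pou3f4 are shown because all 3 genes were highest in the GFP negative cells of day 5. They are from RefSeq on GRCm38.p6 and run 5′ to 3′ on the strand of the gene, with CCAAT in capitals. They cover chr4:22488367-22488616, chr1:42695518-42695767 and chrX:110814129-110814279, and for Pou3f4 the stretch stops before the GENCODE start, which lies ahead of the RefSeq start.
Pou3f2: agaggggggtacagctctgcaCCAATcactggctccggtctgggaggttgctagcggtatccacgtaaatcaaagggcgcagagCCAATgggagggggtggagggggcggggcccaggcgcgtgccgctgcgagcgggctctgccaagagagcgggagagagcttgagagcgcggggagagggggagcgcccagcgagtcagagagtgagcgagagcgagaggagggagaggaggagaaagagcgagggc
Pou3f3: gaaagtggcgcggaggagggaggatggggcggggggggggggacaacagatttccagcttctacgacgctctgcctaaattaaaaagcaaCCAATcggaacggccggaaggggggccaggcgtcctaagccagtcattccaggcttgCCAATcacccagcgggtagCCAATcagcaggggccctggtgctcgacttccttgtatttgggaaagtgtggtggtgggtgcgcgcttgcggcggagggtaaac
Pou3f4: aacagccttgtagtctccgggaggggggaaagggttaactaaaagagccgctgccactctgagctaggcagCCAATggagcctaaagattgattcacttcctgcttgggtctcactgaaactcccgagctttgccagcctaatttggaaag

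In the RefSeq windows from 250 bases before to 50 bases after the start, CCAAT on either strand was found 2 times for Pou3f2, at -229 and -166, 3 times for Pou3f3, at -160, -103 and -84, and 3 times for Pou3f4, at -179, -76 and -35, of which only the first lies in the stretch shown. Of the 32851 windows in the table, 37.4% held it at least 1 time, 11.7% at least 2 times and 3.37% at least 3 times. This motif was chosen after the sequences had been read. The octamer ATGCAAAT, to which POU proteins bind, was in 1.74% of all windows, and no window of Otx2, Pou3f2, Pou3f3, Pou3f4, Sall2 or Nr6a1 held it on either strand. The OTX core TAATCC was in 7.06% of all windows, in 1 of the 4 Otx2 windows, and in no window of the other members searched. The G and C content of the windows was 67.7% for Pou3f2, 60.3% for Pou3f3 and 57.7% for Pou3f4, against a median of 52.7% over all windows.

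The normalized counts of a library summed to between 39849111 and 51587535, and Spearman's rho for 2 libraries of 1 group ran from 0.953 to 0.993, the lowest values involving day 0 replicate 1. The gates carried their labels. On day 4 GFP positive cells held 9559 ± 436 (SD, n = 3) normalized counts of Rax and GFP negative cells 975 ± 38.4, and on day 5 they held 8608 ± 464 and 447 ± 60.5. In the following, a gene rose or fell where limma gave an adjusted p (Benjamini-Hochberg over the 21005 genes) under 0.001, and was called where its log2 fold change was also above 1.5 in either direction. Fold changes are on the scale of log2(normalized count + 1), which understates the change of genes with low counts. These are bulk samples, so fewer cells of a type and less RNA per cell cannot be told apart.

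**Figure D1:**
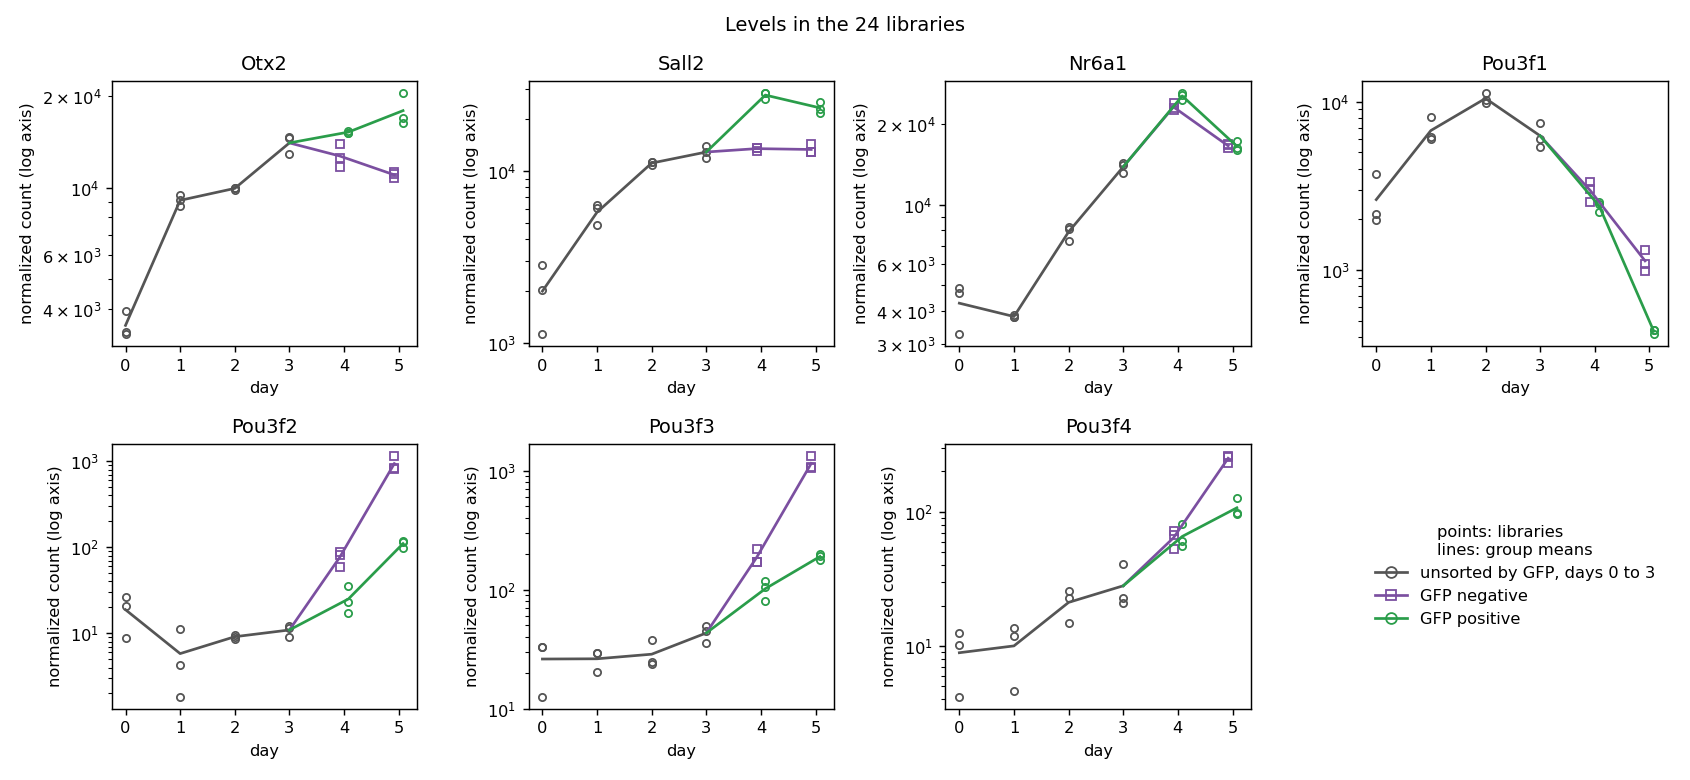
Normalized count (log axis) of each gene against day, with 1 point per library and lines through the means of 3 libraries; grey is days 0 to 3, violet squares GFP negative and green circles GFP positive cells. Otx2 and Sall2 climbed from day 0 and Nr6a1 from day 1, Pou3f1 peaked at 10464 on day 2, and Pou3f2, Pou3f3 and Pou3f4 were highest in the GFP negative cells of day 5.

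Otx2 transcripts were abundant in every group and stepped up within the first day. The libraries of day 0 held 3303, 3927 and 3350 normalized counts, those of day 1 9442, 8739 and 9109, those of day 2 9866, 10004 and 10006, and those of day 3 12878, 14600 and 14689. The day 0 libraries lay below all others, and no 2 of these 4 days overlapped. Otx2 rose by 1.37 ± 0.10 (log2, SE) from day 0 to day 1 (limma, adjusted p = 3.94e-08) and by 2.00 ± 0.10 from day 0 to day 3 (adjusted p = 1.48e-12), where it was called. The steps between were 0.13 to day 2 (adjusted p = 0.424) and 0.49 to day 3 (adjusted p = 0.00163).

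After day 3 the level of Otx2 parted between the gates. The GFP positive cells held 15372, 15192 and 15209 normalized counts on day 4 and 16363, 20505 and 16990 on day 5. The GFP negative cells held 13890, 12566 and 11738 on day 4 and 10761, 11262 and 11081 on day 5. Every GFP positive library was above every GFP negative library of its day. On day 5 Otx2 was higher in the GFP positive cells by 0.70 ± 0.10 (log2, adjusted p = 1.7e-05), short of the fold needed for a call, and on day 4 the difference was 0.265 ± 0.097 (adjusted p = 0.0735). The difference itself was 0.43 ± 0.14 larger on day 5 (adjusted p = 0.178). Between groups next to each other in level, only day 3 and the GFP negative cells of day 4 overlapped, and the highest group mean was 5.09-fold the lowest.

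Of Otx2, Sall2 and Nr6a1, Sall2 had the largest fold change over days 0 to 3 and the largest difference between the gates on day 4. Its day 0 libraries held 1128, 2833 and 2043 normalized counts, those of day 1 6327, 4872 and 6038, those of day 2 10808, 11179 and 11247, and those of day 3 13848, 12781 and 11902. No 2 of these days overlapped, and day 0 replicate 1 was the lowest of all libraries. Sall2 rose by 1.61 ± 0.20 (log2, SE) to day 1 (limma, adjusted p = 1.63e-05), which was called, and by 2.78 ± 0.20 from day 0 to day 3 (adjusted p = 3.94e-10), also called. Without day 0 replicate 1 the first of these was 1.25 (adjusted p = 5.84e-07) and no longer called. With only day 0 and day 1 in the fit its adjusted p was 0.103. The step to day 2 was 0.96 (adjusted p = 0.00167) and that to day 3 0.21 (adjusted p = 0.528).

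In the GFP positive cells Sall2 stood at 26050, 28234 and 28201 normalized counts on day 4 and at 24906, 21637 and 22954 on day 5. In the GFP negative cells it stood at 13636, 13094 and 13591 on day 4 and at 14283, 12772 and 12805 on day 5, which overlapped the libraries of day 3. The lowest GFP positive library was far above the highest GFP negative one on both days. Sall2 rose by 1.10 ± 0.20 from day 3 to the GFP positive cells of day 4 (adjusted p = 0.000122), against 0.07 to the GFP negative cells (adjusted p = 0.878), and these comparisons share the day 3 libraries. Without day 3 replicate 3 the first had an adjusted p of 0.00102. Between the gates it was higher in the GFP positive cells by 1.03 ± 0.20 on day 4 (adjusted p = 0.000649) and by 0.80 ± 0.20 on day 5 (adjusted p = 0.0059), and the change in that difference was -0.23 ± 0.28 (adjusted p = 0.9).

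Nr6a1 was held back by a day and then rose in successive steps to day 4. Day 0 held 3269, 4654 and 4879 normalized counts, day 1 3838, 3792 and 3778, day 2 8122, 8250 and 7331, and day 3 13174, 14321 and 14077. Days 0 and 1 overlapped, and each later day lay above the one before. Nr6a1 rose by 1.05 ± 0.11 to day 2 (limma, adjusted p = 1.36e-06) and by 0.81 ± 0.11 to day 3 (adjusted p = 4.42e-05), and was called from day 0 to day 3 at 1.72 ± 0.11 (adjusted p = 8.19e-11).

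On day 4 Nr6a1 stood at 22926, 22681 and 24069 normalized counts in the GFP negative and at 24711, 26189 and 25776 in the GFP positive cells. It rose from day 3 into both, by 0.75 (adjusted p = 4.64e-05) and 0.88 (adjusted p = 1.34e-06). On day 5 it was at 16827, 16761 and 16238 in the GFP negative and at 16007, 16336 and 17292 in the GFP positive cells, and these overlapped. It fell by 0.63 ± 0.11 in the GFP positive cells (adjusted p = 0.000514), a pass that was lost without any 1 of the 6 libraries compared (adjusted p = 0.00184 to 0.00415), and the step in the GFP negative cells was -0.48 ± 0.11 (adjusted p = 0.00612). Nr6a1 did not pass the test between the gates. The difference was 0.14 ± 0.11 on day 4 (adjusted p = 0.495), and its day 5 value was -0.01 ± 0.11 (adjusted p = 0.987). Pou5f1, the gene that Nr6a1 represses in stem cells, held 19799 to 28985 normalized counts on day 3, 560 to 1006 in the GFP positive and 6176 to 7636 in the GFP negative cells of day 4. From day 1 to day 2, where Nr6a1 rose by 1.05, Pou5f1 was at -0.105 ± 0.179 (limma, adjusted p = 0.778). A link between these genes was not tested.

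Pou3f1 was the class III POU gene of the early days, and it formed a peak. The libraries of day 0 held 1991, 3699 and 2165 normalized counts, those of day 1 8099, 5985 and 6144, those of day 2 11257, 10282 and 9854, and those of day 3 7445, 5988 and 5378. Day 2 was above every other group, days 1 and 3 overlapped, and day 0 replicate 2 stood above the other libraries of day 0. Pou3f1 rose by 1.41 ± 0.18 from day 0 to day 1 (limma, adjusted p = 3.35e-05), and without day 0 replicate 2 it was called, at 1.68 (adjusted p = 9.37e-07). The steps around the peak were 0.65 ± 0.18 to day 2 (adjusted p = 0.0181) and -0.75 ± 0.18 to day 3 (adjusted p = 0.00871).

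The decline of Pou3f1 then went on in both gates. The GFP negative cells held 3316, 2542 and 3015 normalized counts on day 4 and 1322, 988 and 1086 on day 5. The GFP positive cells held 2539, 2461 and 2203 on day 4 and 442, 416 and 438 on day 5. The gates did not overlap on either day, although the nearest libraries on day 4, at 2542 and 2539, almost touched. From day 3 to day 4 Pou3f1 fell by 1.08 ± 0.18 in the GFP negative (adjusted p = 0.000231) and by 1.37 ± 0.18 in the GFP positive cells (adjusted p = 3.57e-06). The first of these missed the threshold without day 3 replicate 1 or 2 or GFP negative replicate 2 or 3 (adjusted p = 0.0011 to 0.00273). From day 4 to day 5 it fell by 1.39 ± 0.18 (adjusted p = 2.97e-05) and by 2.47 ± 0.18 (adjusted p = 1.66e-08), the last of which was called. On day 5 it was lower in the GFP positive cells, with a difference of -1.38 ± 0.18 (log2, adjusted p = 9.71e-06), against -0.30 ± 0.18 on day 4 (adjusted p = 0.351). The highest group mean of Pou3f1 was 24.2-fold the lowest.

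Pou3f2 and Pou3f3 were near the floor of the data until day 3 and rose in the GFP negative cells. Over days 0 to 3 the libraries of Pou3f2 lay between 1.83 and 26.6 normalized counts and those of Pou3f3 between 12.6 and 49.6, with 1 read worth 0.804 to 1.39 normalized counts. For Pou3f2 the change from day 0 to day 1 was -1.67 ± 0.42 (limma, adjusted p = 0.0121), and neither gene rose or fell at any step up to day 3.

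On day 4 Pou3f2 held 81.5, 88.8 and 58.4 normalized counts in the GFP negative and 17.0, 22.9 and 35.2 in the GFP positive cells. On day 5 it held 813, 843 and 1155 in the GFP negative and 98.0, 117 and 116 in the GFP positive cells. The gates did not overlap on either day, and the GFP negative cells were the higher. In these cells Pou3f2 was called at both steps, at 2.68 ± 0.42 from day 3 (adjusted p = 8.26e-05) and 3.61 ± 0.42 from day 4 to day 5 (adjusted p = 6.05e-06). In the GFP positive cells the steps were 1.08 ± 0.42 (adjusted p = 0.0467) and 2.15 ± 0.42 (adjusted p = 0.00135), and without day 0 replicate 1 in the fit the latter was called (adjusted p = 0.000915). Its highest group mean was 161-fold its lowest, the widest range of the members. The lowest group was day 1, with libraries at 1.83, 4.33 and 11.3 normalized counts, so this fold rests on values near the floor.

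Pou3f3 was also higher in the GFP negative cells, at higher counts on day 4. It held 170, 219 and 169 normalized counts in the GFP negative and 106, 80.7 and 119 in the GFP positive cells of day 4, and 1065, 1052 and 1335 against 177, 193 and 200 on day 5. Again no library of one gate reached the other. It was called in the GFP negative cells, at 2.08 ± 0.29 from day 3 (adjusted p = 2.21e-05) and 2.62 ± 0.29 from day 4 to day 5 (adjusted p = 3.39e-06). The steps in the GFP positive cells were 1.21 ± 0.29 (adjusted p = 0.00204) and 0.91 ± 0.29 (adjusted p = 0.0514).

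Pou3f4 changed more gradually and was not called in any comparison of the main fit. Its libraries on day 0 ran from 4.19 to 12.4 normalized counts, those of day 1 from 4.59 to 13.6, those of day 2 from 14.9 to 25.7 and those of day 3 from 20.8 to 40.8. The gates overlapped on day 4, at 53.1, 72.3 and 66.8 in the GFP negative and 60.2, 80.6 and 55.8 in the GFP positive cells. On day 5 they were apart, at 258, 233 and 262 in the GFP negative and 98.2, 127 and 96.8 in the GFP positive cells. The largest step was 1.96 ± 0.37 from day 4 to day 5 in the GFP negative cells (limma, adjusted p = 0.00116), and the change over days 0 to 3 was 1.60 ± 0.37 (adjusted p = 0.00131). Both missed the threshold on p. Over the step to day 5 in the GFP negative cells, 3 members including Pou3f4 were called under other settings. This was so with only the compared groups in the fit (against 0.845% of all genes) and with a pseudocount of 5 (against 1.52%).

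**Figure D2:**
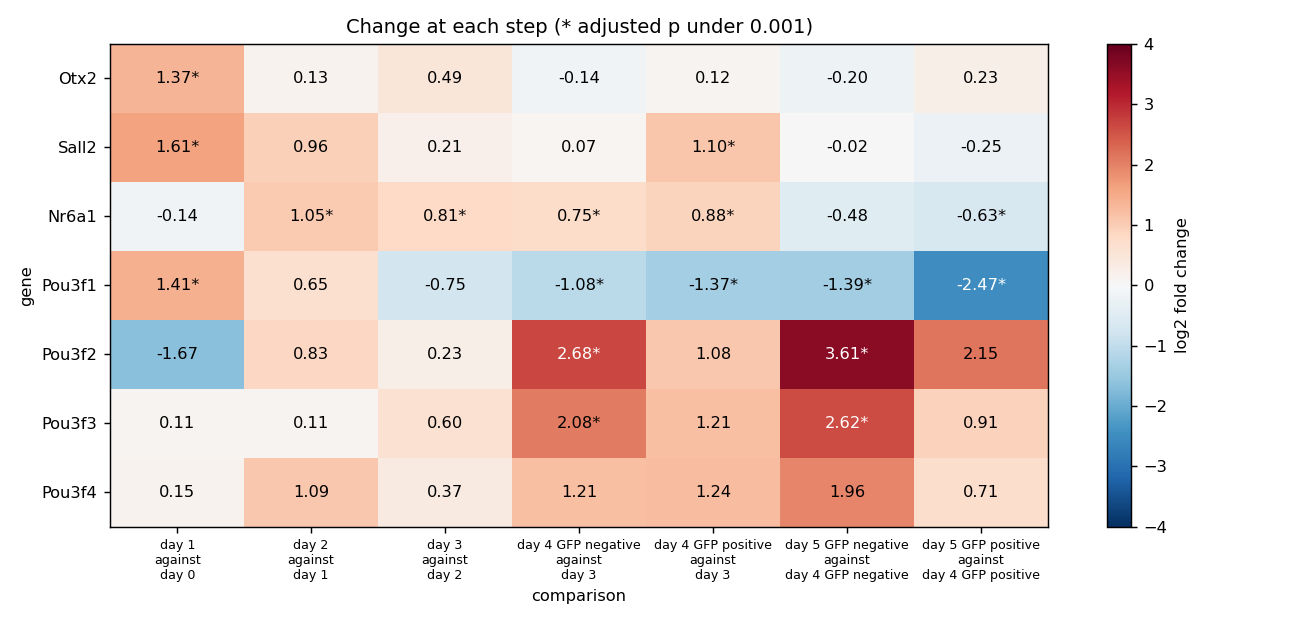
Log2 fold change (colour and printed value) of each gene, in rows, at each successive step, in columns; an asterisk marks an adjusted p under 0.001. Sall2, Otx2 and Pou3f1 carry the asterisks of the first step, at 1.61, 1.37 and 1.41, and Pou3f2 and Pou3f3 those of the steps among GFP negative cells that lead upward most, at 3.61 and 2.62 on day 5.

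The number of members called at each step was read against the share of all genes called there. From day 0 to day 1, 1 of 7 was called (Sall2) against 0.738% of all genes, and 3 of 7 passed on p alone against 2.08%. With only these 2 groups in the fit the adjusted p of the 3 genes lay at 0.0189 (Otx2), 0.0928 (Pou3f1) and 0.103 (Sall2), and that fit called 0.00532% of all genes. From day 1 to day 2 limma called 0 of 7 against 1.47%, 1 passed on p alone (Nr6a1) against 4.40%, and 4 had an unadjusted p under 0.05 against 28.2%. From day 2 to day 3 it called 0 against 1.00%, 1 passed on p alone (Nr6a1) against 2.77%, and 3 had an unadjusted p under 0.05, also against 28.2%. Over the whole span from day 0 to day 3, 3 of 7 were called, all higher (Otx2, Sall2 and Nr6a1), against 12.0%, and 4 passed on p alone with Pou3f1 at 1.30 ± 0.18, against 22.3%.

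From day 3 to the GFP negative cells of day 4, 2 of 7 were called against 2.88%, and 4 passed on p alone against 5.92%. To the GFP positive cells of day 4 limma called 0 although 10.7% of all genes were called, 3 passed on p alone against 18.8%, and 6 had an unadjusted p under 0.05 against 44.9%. From day 4 to day 5 in the GFP negative cells 2 were called against 1.27% and 3 passed on p alone against 2.56%. In the GFP positive cells 1 was called (Pou3f1, lower) against 1.49% and 2 passed on p alone against 2.94%.

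The make-up of the class III POU transcripts can be compared across genes only per length, here as normalized counts per kilobase of exon. Pou3f1 made up 98.5% ± 0.28 (SD, n = 3) of the class III total on day 0, and on days 1, 2 and 3 its share was 99.6% ± 0.13, 99.5% ± 0.06 and 98.9% ± 0.45. On day 4 its share was 92.5% ± 1.88 in the GFP negative and 93.9% ± 0.67 in the GFP positive cells. On day 5 it was 41.9% ± 5.31 in the GFP negative and 57.8% ± 3.07 in the GFP positive cells, and the libraries of the gates did not overlap, at 37.2% to 47.7% against 54.5% to 60.5%.

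The rest of the total was divided differently in the gates of day 5. In the GFP negative cells Pou3f2 held 23.8% ± 3.54, Pou3f3 22.1% ± 1.95 and Pou3f4 12.2% ± 0.43. In the GFP positive cells the order ran the other way, with Pou3f4 at 18.8% ± 2.61, Pou3f3 at 13.2% ± 0.65 and Pou3f2 at 10.2% ± 0.79. The total itself was 2731 ± 186 per kilobase on day 2, 703 ± 66.5 in the GFP negative and 194 ± 4.18 in the GFP positive cells of day 5. A share therefore describes the make-up only: all 4 genes had lower levels per kilobase in the GFP positive cells of day 5.

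**Figure D3:**
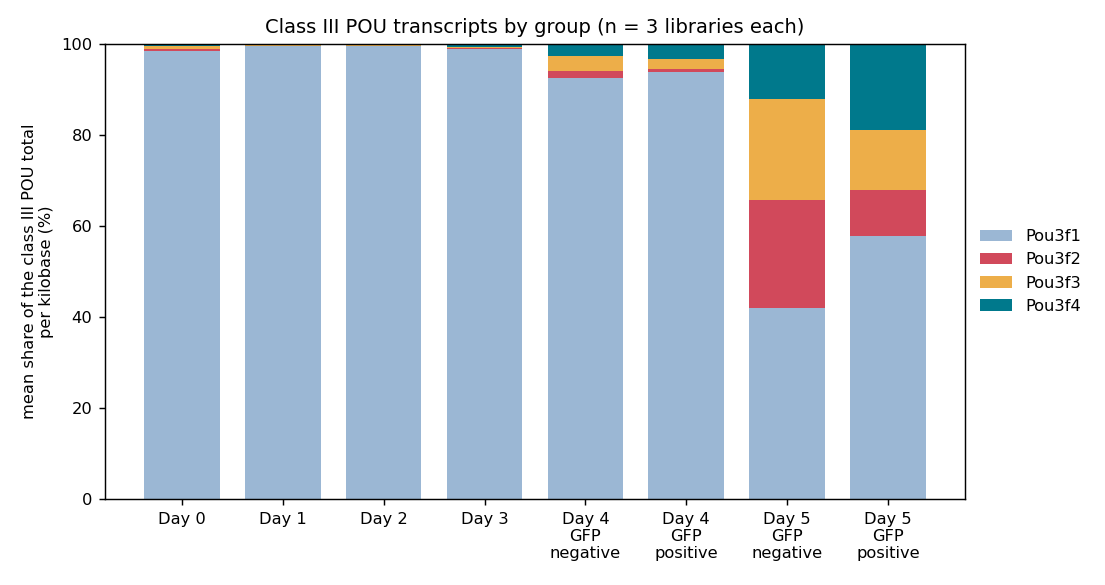
Mean share (%) of each class III POU gene in their summed normalized counts per kilobase, by group (3 libraries each, bars start at 0). Pou3f1 fills at least 92.5% of the bar up to day 4 and 41.9% and 57.8% of it in the GFP negative and GFP positive cells of day 5.

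The gates were compared directly to ask how the members differ between cells of higher Rax reporter signal and those of low or no signal. On day 4 limma called 0 of 7 against 3.96% of all genes, 1 passed on p alone (Sall2) against 6.08%, and 4 had an unadjusted p under 0.05 against 25.7%. Without any 1 of the 6 day 4 libraries Sall2 no longer passed (adjusted p = 0.00241 to 0.004). On day 5, 2 were called, both lower in the GFP positive cells, against 5.01% (Pou3f2 at -3.06 ± 0.42, limma adjusted p = 1.19e-05, and Pou3f3 at -2.59 ± 0.29, adjusted p = 9.12e-07), and 4 passed on p alone against 6.97%. That direction was the common one, since of all 1052 genes called on day 5, 968 were lower and 84 higher in the GFP positive cells. Pou3f4 was at -1.23 ± 0.37 on day 5 (adjusted p = 0.025), whereas its day 4 value was 0.03 ± 0.37 (adjusted p = 0.979). On day 4 Pou3f2 was at -1.61 ± 0.42 (adjusted p = 0.00942) and Pou3f3 at -0.87 ± 0.29 (adjusted p = 0.0448). In the test of whether the difference between the gates changed from day 4 to day 5, 0 members were called against 0.109% of all genes, 0 passed on p alone against 0.152%, and 5 had an unadjusted p under 0.05 against 9.40%. The smallest values there were those of Pou3f3 (-1.72 ± 0.41, adjusted p = 0.0422) and Pou3f1 (-1.08 ± 0.26, adjusted p = 0.044).

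**Figure D4:**
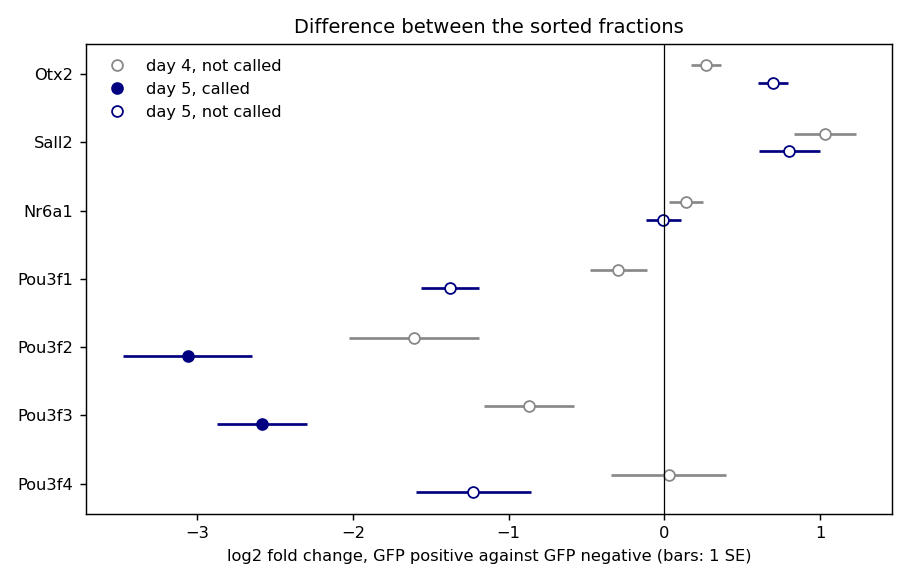
Log2 fold change of the GFP positive against the GFP negative cells on day 4 (grey) and day 5 (dark blue) for each gene, with bars of 1 SE; filled points are called. Otx2 and Sall2 lie to the right of 0 on both days, and Pou3f2 and Pou3f3 on day 5 are the called points, at -3.06 and -2.59.

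Markers of several other cell types, like Pou3f2 and Pou3f3, were higher in the GFP negative than in the GFP positive cells of day 5, but these lists did not all rise with both genes from day 4 to day 5. The 8 midbrain and hindbrain markers summed to 11290 to 14180 normalized counts in the GFP negative libraries and to 5309 to 5884 in the GFP positive ones, and without Pax2 to 10250 to 13130 and 1149 to 1405. Of the 8, 5 were called lower in the GFP positive cells, led by Gbx2 at -3.47, En1 at -3.42 and En2 at -3.35, and Pax2, which also marks the optic stalk, was called higher at 2.23. The list's median was -3.13, against -0.002 over all genes. All 8 mesendoderm markers were called lower on both days, and they summed to 5360 to 6214 against 282 to 493 on day 5, led by Sox17 at -4.44, Mesp1 at -4.35 and Gata6 at -4.26.

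Markers of neurons, in which Pou3f2 and Pou3f3 are known to act, summed to 3214 to 3672 in the GFP negative and 2672 to 2716 in the GFP positive libraries of day 5, with 1 of 5 called lower (Neurod1 at -3.04). Elavl3, Stmn2 and Dcx were at -0.35, -1.13 and -0.57, and Tubb3 went the other way, at 0.375 (limma, adjusted p = 0.0306). Of the remaining marker lists, 2 of 4 tested endothelial genes (Cdh5 at -4.38 and Tek at -2.37), 2 of 5 measured surface ectoderm and neural crest genes (Sox10 at -2.62 and Tfap2c at -2.43) and 2 of 3 trophoblast genes (Hand1 at -5.54 and Cdx2 at -5.39) were called lower in the GFP positive cells of day 5. No marker of these lists was at 0 in all libraries of either gate. From day 4 to day 5 in the GFP negative cells, where Pou3f2 and Pou3f3 rose, the midbrain and hindbrain list had a median of 0.98, and of its 8 genes 1 rose, En2 at 1.23 (limma, adjusted p = 0.000166), short of the fold for a call. Over the same step the mesendoderm list had a median of -0.35 with Mixl1 and Eomes called lower (-2.61 and -2.17), and the neuron list one of -0.41 with Elavl3 called lower (-1.58). Of the 4 tested endothelial genes, Cdh5 and Tek were called higher over that step, at 2.74 and 1.52. Kdr was at 0.32 and Pecam1 at -0.34, and the median of the list was 0.92. The part of these cell types in the levels of Pou3f2 and Pou3f3 was not tested.

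Otx1, the closest relative of Otx2, had its largest step from day 3 to day 4. It held 6.64 to 31.1 normalized counts on day 0 and 92.5 to 105 on day 3, then 2790 to 3663 in the GFP negative and 3557 to 4367 in the GFP positive cells of day 4. It was called higher from day 0 to day 3, at 2.68 ± 0.33 (limma, adjusted p = 1.11e-06). It was also called higher from day 3 into both gates, at 5.04 ± 0.33 (limma, adjusted p = 9.49e-10) and 5.35 ± 0.33 (adjusted p = 4.08e-11). Over the same step Otx2 was at -0.14 and 0.12. On day 5 Otx1 held 5863 to 6249 in the GFP negative and 2052 to 2687 in the GFP positive cells, at -1.41 ± 0.33 (adjusted p = 0.00397), whereas Otx2 was the higher in the GFP positive cells. Crx, the photoreceptor member of the family, was called at 3.14 ± 0.33 into the GFP positive cells of day 4 (adjusted p = 9.99e-08), where it held 242 to 250 normalized counts, and at 1.85 ± 0.33 into the GFP negative cells (adjusted p = 0.000321). Of the 5 relatives, 2 were called lower in the GFP positive cells on each day, the same genes Gsc and Dmbx1, at -2.95 and -3.58 on day 4 and -2.59 and -3.40 on day 5.

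The other spalt genes are given beside Sall2. Sall1 and Sall4 held between 6691 and 16071 normalized counts in every library of days 0 to 4, and neither rose or fell at any step up to day 4. From day 4 to day 5 Sall4 fell by 1.34 ± 0.11 in the GFP positive (limma, adjusted p = 7.82e-08) and 1.19 ± 0.11 in the GFP negative cells (adjusted p = 6.89e-07), and Sall1 fell by 1.20 and 1.06. Sall2 was at -0.25 and -0.02 over these steps. Sall3, like Sall2, was called higher from day 0 to day 3, at 2.90 ± 0.23, and had its highest group mean in the GFP positive cells of day 4, where it held 6402 to 6611 normalized counts, and was called lower there by day 5 at -2.31 ± 0.23 (adjusted p = 7.16e-07).

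**Figure D5:**
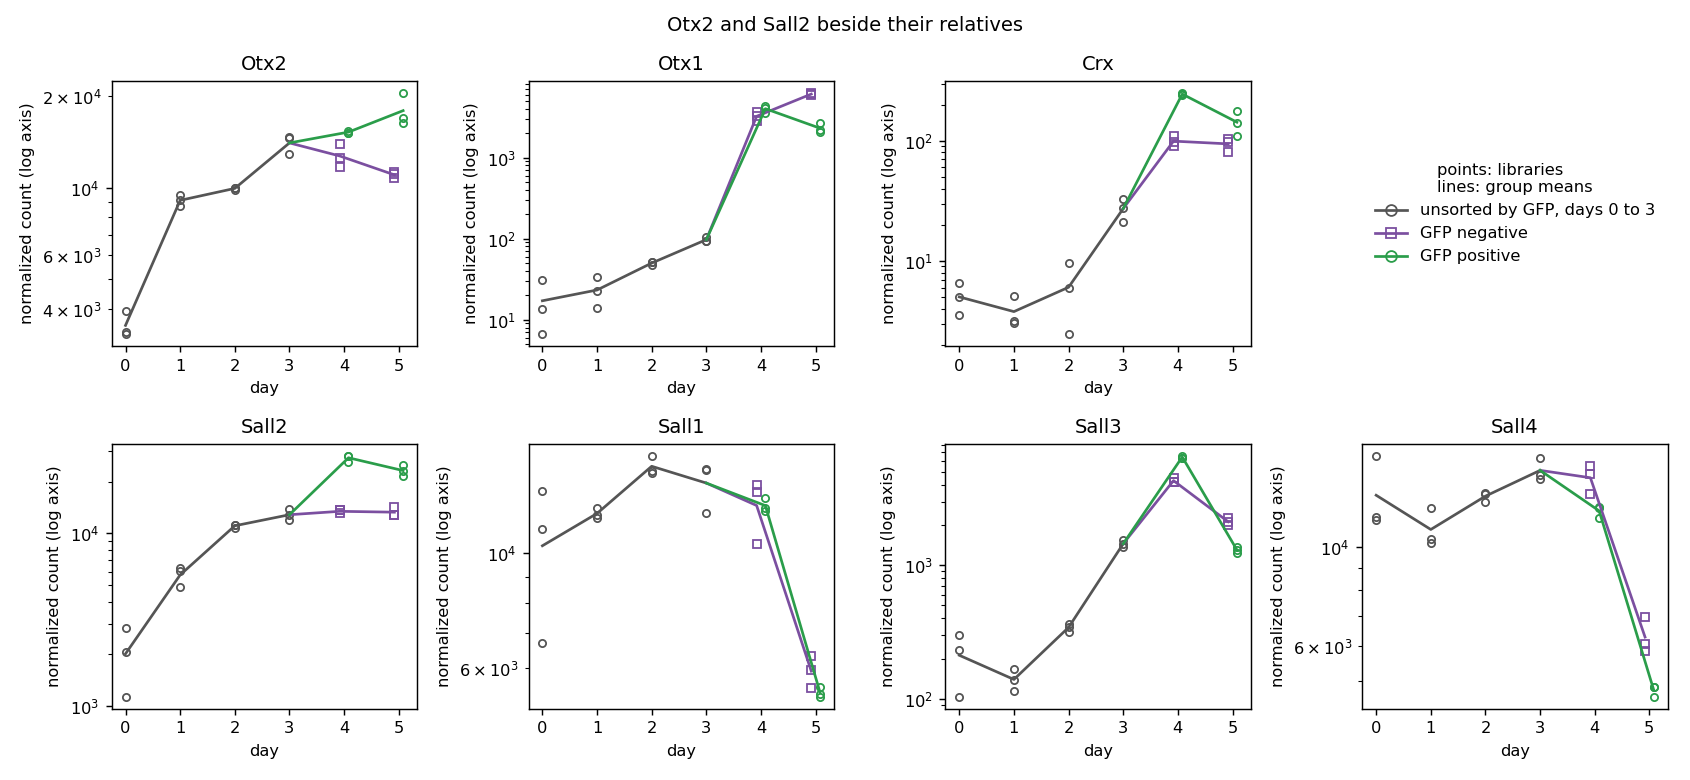
Normalized count (log axis) of Otx2 and its relatives Otx1 and Crx, and of Sall2 and the other spalt genes, against day, with 1 point per library and lines through group means; panels have axes of their own, so heights compare within a gene only. Otx1 jumps from at most 105 on day 3 to at least 2790 on day 4, and Sall1 and Sall4 drop after day 4 while Sall2 stays at 12772 or above.

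Of the 11 POU genes outside class III, 9 were tested, and only Pou5f1 and Pou4f2 were called in any comparison. Pou5f1, the core pluripotency factor, was called lower at each step after day 3 and on day 5 held 63.7 to 83.7 normalized counts with GFP and 1094 to 1538 without it. Pou4f2, a gene of retinal ganglion cells, had group means of 36.0 or more up to day 2, 13.4 on day 3 and 0.88 in the GFP positive cells of day 4, where it was called lower than on day 3. Among the 7 nuclear receptors listed around Pou5f1, Nr2f1 and Nr2f2 were called higher from day 3 into the GFP positive cells of day 4, at 6.28 and 7.60, and into the GFP negative cells, at 4.89 and 5.21. Nr5a2 and Nr0b1, which belong to the stem cell network, were called lower from day 0 to day 3, at -2.95 and -3.32.

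The noncoding neighbours were low. Pantr1 lies on the other strand, 82 bases from the start that the table gives for Pou3f3, and is transcribed away from it. From the GENCODE start of Pou3f3 the distance of Pantr1 is 925 bases. It held 204 to 292 normalized counts in the GFP negative and 80.1 to 92.4 in the GFP positive cells of day 5, against 0 to 2.55 on day 0. It was called from day 0 to day 3 at 2.96 ± 0.57 (limma, adjusted p = 0.000229), and between the gates of day 5 it was at -1.57 ± 0.57 (adjusted p = 0.0687). Otx2os1 lay between 10.7 and 57.3 in all libraries and was called in no comparison, and Pantr2 was below the filter, with at most 24.1.

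Pluripotency genes were also lower in the GFP positive cells, as Pou3f1 was on day 5. All 12 genes of the naive list were called lower there on both days, with a median of -3.21 on day 4 and -3.53 on day 5 against 0.007 and -0.002 over all genes, and the day 5 list was led by Nr0b1 at -4.26, Dppa3 at -4.04 and Nanog at -3.93. On day 5 they summed to 5130 to 6092 normalized counts in the GFP negative and to 550.2 to 727.9 in the GFP positive libraries. Of the 12 formative and primed epiblast genes 8 were called lower on each day, with a median of -2.16 on day 4 and -2.52 on day 5, led on day 5 by Fgf5 at -5.01, Utf1 at -4.31 and Foxd3 at -3.85. The part of such cells in the level of Pou3f1 was not tested.

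The states through which the cells passed were followed by 3 further lists. Of 12 formative and primed epiblast genes, among which Pou3f1 is usually counted, 2 were called higher from day 0 to day 1 (Fgf5 at 2.10 and Dnmt3b at 1.89). From day 0 to day 3 the list went both ways, with 3 called higher, 3 called lower (Tcf15, Etv4 and Dnmt3l) and a median of -0.21. From day 3 to the GFP positive cells of day 4, 10 were called lower, led by Foxd3 at -6.41, Utf1 at -5.53 and Etv5 at -4.58. The list's median over that step was -3.30, against -0.01 over all genes, and over the step to the GFP negative cells it was -1.29 with 4 called lower. Of 12 naive pluripotency genes, 11 were called lower from day 0 to day 3, led by Klf4 at -3.42, Nr0b1 at -3.32 and Prdm14 at -3.25, with a median of -2.61. Of 12 early neural genes, 7 were called higher over that span, led by Zfp521 at 3.85, Sox3 at 3.64 and Hesx1 at 3.43, with a median of 2.00. Zic1, also of that list, was called higher from day 4 to day 5 in the GFP negative cells at 4.57 and in the GFP positive cells at 3.66, and Hesx1 was called lower over these steps at -3.15 and -2.74.

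The members were compared with each other over the 24 libraries, which share days and gates. Pearson's r of the log2 values was 0.94 for Pou3f2 and Pou3f3, 0.94 for Pou3f3 and Pou3f4 and 0.86 for Pou3f2 and Pou3f4. It was 0.94 for Otx2 and Sall2, 0.85 for Sall2 and Nr6a1 and 0.76 for Otx2 and Nr6a1. Pou3f4 was also close to Nr6a1, at 0.81, and to Sall2, at 0.73, and r was 0.69 for Pou3f3 and Nr6a1. Pou3f1 was opposed to its relatives, at -0.73 with Pou3f2, -0.67 with Pou3f3 and -0.65 with Pou3f4, and at -0.25 with Otx2.

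The genes most like each member were sought by the same measure among 14375 genes with a group mean of at least 100 normalized counts. For Otx2 they were Lpcat2 (r = 0.95) and Zfp608 (0.94), for Sall2 Ogfr (0.98) and Sema4c (0.97), and for Nr6a1 Cap2 (0.99) and Rbm24 (0.98). For Pou3f1 they were Lrmp and Myh6 (0.97 each), for Pou3f2 Rfx4 and Rspo2 (0.96 each), for Pou3f3 Apcdd1 (0.98) and Igdcc3 (0.98), and for Pou3f4 Adamts1 (0.98) and Pantr1 (0.97). The choice depended on the measure, since Spearman's rho kept 1 of these 14 genes, Myh6. Pantr1 is the neighbour of Pou3f3 named before, and Pou3f4 lies on another chromosome.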

How the data were processed

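The authors deposited normalized counts per gene for 24 libraries, a signal made from kallisto 0.43.1 estimates on mm10 with DESeq2 size factors, per the labels and the study's methods. Values were tested as log2(normalized count + 1) with limma 3.58.1 in R 4.3.3 (1 fit of 8 groups, eBayes with trend, 11 contrasts), on the 21005 genes that reached 10 normalized counts in 3 or more libraries, with Benjamini-Hochberg adjustment within a contrast. Genes were called at adjusted p values under 0.001 with a log2 fold change above 1.5 in either direction. Tested on simulated data for day 3 against day 2, this recovered 94% of planted changes of 3 and 86% of those of 2 (log2), with 0 other calls among 21005 genes. Changes were planted only in genes with a mean log2 value over all libraries of at least 5, and Pou3f2, Pou3f3 and Pou3f4 had lower values in early groups. Apart from these changes a simulated gene had the same mean and spread in all 8 groups. The simulation therefore does not cover groups that differ in spread. Named were all 7 members, the 2 genes most like each, and of each gene list the called genes with the 3 largest changes. The members and lists were chosen with earlier results of these data known. Motifs and exons came from RefSeq and GENCODE M21 on GRCm38. Python 3.11.15 was used for the rest. Alternatives changed the scaling, pseudocount, filter, thresholds, model and libraries. The eye field list is not reported here.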

Additional observations from a re-analysis of the deposited data

Results flagged for a closer look

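The difference between the gates changed from day 4 to day 5 for 2 of 7 members at an adjusted p under 0.05, against 1.10% of all genes, by limma's test of that change with Benjamini-Hochberg adjustment. For Pou3f3 the difference moved by -1.72 ± 0.41 on the log2 scale (adjusted p = 0.0422), with GFP negative libraries at 169 to 219 normalized counts on day 4 and 1052 to 1335 on day 5 and GFP positive ones at 80.7 to 119 and 177 to 200. For Pou3f1 it moved by -1.08 ± 0.26 (adjusted p = 0.044), with GFP negative libraries at 2542 to 3316 and then 988 to 1322 and GFP positive ones at 2203 to 2539 and then 416 to 442. All 3 GFP positive libraries lay below all 3 GFP negative ones for both genes on both days. For Pou3f1 on day 4 the nearest libraries almost touched, at 2539 and 2542, and the difference was -0.30 ± 0.18 (limma, adjusted p = 0.351). The share of all genes with such a separation is not given here. With a library of these groups left out, the adjusted p ranged from 0.0458 to 0.125 for Pou3f3 and from 0.0515 to 0.136 for Pou3f1.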

How the results depend on the processing

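Calls of the members depended most on the thresholds. At an adjusted p under 0.05 with no fold threshold, the number of members that passed was 4 from day 0 to 1, 4 from day 1 to 2, 3 from day 2 to 3, 6 and 5 from day 3 to day 4 with and without GFP, 3 and 5 from day 4 to day 5 in the GFP positive and GFP negative cells, 6 from day 0 to 3, 3 and 6 between the gates of days 4 and 5, and 2 for the change between them. In the same order 10.0%, 16.6%, 14.4%, 37.9%, 18.5%, 9.80%, 10.2%, 43.6%, 15.7%, 16.0% and 1.10% of all genes passed. At a log2 fold threshold of 1 it was 3 from day 0 to 1, 1 from day 1 to 2 (Nr6a1), 2 and 3 from day 3 to the GFP positive and negative cells, 3 in the GFP negative cells from day 4 to day 5, 4 from day 0 to 3, and 1 (Sall2) and 3 between the gates of days 4 and 5, against 1.49%, 3.16%, 14.6%, 4.48%, 2.03%, 16.7%, 5.27% and 6.21% of all genes. The other counts did not move. In limma's test against a log2 fold change of 1.5 itself, 1 member (Sall2) passed from day 0 to 3 against 1.96% of all genes. None of the members passed from day 0 to 1 (0 against 0%), from day 3 to the GFP negative cells (0 against 0.219%), from day 4 to day 5 with and without GFP (0 against 0.0809% and 0.0381%) or between the gates of day 5 (0 against 0.814%), where the adjusted p was 0.0313 for Pou3f2 and 0.0312 for Pou3f3. With only the compared groups in the fit, 0 were called from day 0 to 1 against 0.00532% and 2 from day 4 to day 5 in the GFP positive cells against 1.36%, and a pseudocount of 5 also gave 2 there (Pou3f1 and Pou3f2) against 1.46%. In the GFP negative cells from day 4 to day 5 the same settings gave 3 against 0.845% and 1.52%. Equal library totals gave 3 there against 1.30%, and quantile normalization gave 4 from day 0 to 3 against 12.4%. Leaving out a library gave 0 to 2 calls from day 0 to 1, with 0 without day 0 replicate 1 (against 0.723%) and 2 without day 0 replicate 2 (against 0.756%), and 1 to 2 in the GFP positive cells from day 4 to day 5, with 2 without day 0 replicate 1 (against 1.85%). It also gave 2 to 3 calls in the GFP negative cells from day 4 to day 5 and 3 to 4 from day 0 to 3. With all libraries in the fit, 1.27% and 12.0% of all genes were called there. The cause of these changes beyond the thresholds and the libraries left out was not tested. Signs turned only for differences that had not passed the test. Leaving out a library moved Pou3f3 between -0.33 and 0.33 from day 0 to 1 and between -0.10 and 0.23 from day 1 to 2, Pou3f4 between -0.27 and 0.58 from day 0 to 1 and between -0.13 and 0.13 between the gates of day 4, Sall2 between -0.07 and 0.01 from day 4 to day 5 in the GFP negative cells, and Nr6a1 between -0.04 and 0.02 between the gates of day 5. For that Sall2 value, quantile normalization gave 0.11 and equal library totals 0.09.

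Of 1489 member values under the alternatives, 1403 kept both direction and side of the call, 12 lost the call, 58 gained it and 16 changed sign. Replicate numbers were shared between groups, but libraries of the same number did not deviate together (mean r of 0 over 28 pairs of groups, with all 3 numbers over 0.1 in 1 pair), so not every library correlated best with its own number. With the replicate number as a block, the counts of members called were the same in all 11 comparisons (for example 1 from day 0 to 1 and 2 between the gates of day 5), but the adjusted p of Sall2 between the gates of day 4 went from 0.000649 to 0.00135, past 0.001. It was also past 0.001 with no filter (0.00114), equal library totals (0.00167) and no mean-variance trend (0.00168). The sources do not state whether a number marks the same organoids in both gates. Likeness depended on the measure: of the 14 genes named as most alike, 1 was kept by Spearman's rho (Myh6) and 6 by the 8 group means. Per kilobase, Otx2 stood at 3615 and Sall2 at 5061 in the GFP positive cells of day 4 over the union of exons, and at 5886 and 5342 over the longest transcript, so their order depended on the length used. A count model was not run because low values were whole multiples of 1 read, within 0.1, for only 44.6% to 77.0% of values a library. The 3 libraries a group and the low counts of Pou3f2, Pou3f3 and Pou3f4 before day 4 limit what could be detected.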
